A study of Homo sapiens with 21 samples.

Results

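APOA1, APOA2, APOB, APOC1, APOC3, APOE, APOH, APOM, MTTP and LCAT encode apolipoproteins, a lipid transfer protein and an enzyme of lipoprotein metabolism, and their RNA levels are described here in HepG2 cells given caffeine. The 10 genes were chosen by name, and their symbols were matched to Ensembl identifiers in a table of read counts per gene. All 10 matched, out of 37637 features in the table, and all 10 were among the 17468 genes that passed the filter on low counts. HepG2 is an established human liver cancer line that keeps much of the secretory program of hepatocytes. The cells were exposed for 6 h to caffeine, a methylxanthine that blocks adenosine receptors and inhibits phosphodiesterases, at 0.01, 0.1, 1, 10, 100 or 1000 µM, or were left untreated at 0 µM. Every group, the untreated cells included, had its serum-containing medium replaced by fresh serum-free DMEM for the exposure, so no group shows the cells in serum. Each of the 7 groups had 3 samples, 21 in all, which the series calls biological replicates without saying that they were separate cultures, so p-values measure the spread between these samples. The series' design text names another compound, coumarin, for the control group, whereas its samples are labelled as caffeine at 0 µM and untreated, and those labels are used here.

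Lipoproteins are particles that carry lipid through blood, and the liver makes most of their protein. APOB is the single large scaffold protein of very low and low density lipoproteins and is loaded with lipid in the endoplasmic reticulum by the microsomal transfer protein MTTP. APOA1 and APOA2 are the main proteins of high density lipoproteins, on which the plasma enzyme LCAT esterifies cholesterol, while APOC1, APOC3 and APOE move between particles and govern how fast these are lipolysed and taken up.

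The genes lie at separate places in the genome apart from a pair on each of 2 chromosomes, in GENCODE v29 coordinates of GRCh38. APOC3 (chr11:116829706-116833072, plus strand) and APOA1 (chr11:116835751-116837950, minus strand) are neighbours, as are APOE (chr19:44905754-44909393, plus strand) and APOC1 (chr19:44914247-44919349, plus strand). APOA2 lies at chr1:161222292-161223631 (minus strand), APOB at chr2:21001429-21044073 (minus strand) and MTTP at chr4:99563761-99623999 (plus strand). APOM lies at chr6:31652416-31658210 (plus strand), LCAT at chr16:67939750-67944131 (minus strand) and APOH at chr17:66212033-66256525 (minus strand). Whether the authors' counting used strand is not given in the sources used here, so reads from antisense genes cannot be told apart from those of APOA1 (APOA1-AS), APOB (AC010872.1), APOM (BAG6) and MTTP (TRMT10A and AC083902.1). On the same strand, SLC12A4 overlaps LCAT and AC011481.3 overlaps both APOE and APOC1, so the levels of these 3 genes are uncertain to that extent. APOA2, APOC3 and APOH overlap no other annotated gene.

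Promoter windows are shown for the member with the highest level per length, APOA2, and for the member whose fold change at 1000 µM was nearest to 0, APOH. The sequences are RefSeq's for GRCh38.p14 and cover bases -250 to -11 before the annotated start, 5′ to 3′ on the gene's strand, at chr1:161223639-161223878 for APOA2 and chr17:66229426-66229665 for APOH, both on the minus strand. Capitals mark the matches to the letters searched, TATATA in APOA2 at -29 to -24 and GTTAAT, the core of a site of the hepatocyte factor HNF1, in APOH at -210 to -205 (on the opposite strand, read here as ATTAAC) and at -49 to -44.
APOA2: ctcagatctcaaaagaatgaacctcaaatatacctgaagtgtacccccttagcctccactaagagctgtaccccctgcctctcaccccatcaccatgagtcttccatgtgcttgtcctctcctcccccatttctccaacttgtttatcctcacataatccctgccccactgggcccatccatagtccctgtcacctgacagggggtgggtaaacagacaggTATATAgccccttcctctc
APOH: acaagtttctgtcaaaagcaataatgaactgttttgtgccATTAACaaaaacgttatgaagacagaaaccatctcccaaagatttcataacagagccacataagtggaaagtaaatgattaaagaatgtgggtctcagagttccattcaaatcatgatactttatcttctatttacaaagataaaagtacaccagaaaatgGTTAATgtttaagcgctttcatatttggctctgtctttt
Of 34788 windows of 240 bases, 3.725% held TATATA and 6.134% held GTTAAT on either strand. The other letters searched on both strands were TATAAA (10.601% of windows), CCAAT (31.413%), AGGTCA (11.625%), CAAAGTCCA (0.322%) and GCGTG (31.177%), and none of these was in either printed window. A TATAAA and a TATATA can overlap. Promoter entries matched 6 of the 10 genes, and those of APOA1, APOB, APOC3 and LCAT were not used here. A match describes letters in a window and says nothing about whether a factor binds there.

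The libraries held between 28043623 and 40827833 counts (median 32497612). Levels are given below as CPM, the usual normalised read count, after TMM scaling, which adjusts library totals for differences in composition. A count of 0 would allow up to 0.0735 to 0.107 CPM by counting error alone. The 10 genes together took 1.21% to 1.69% of all counts in a library, and the smallest count of any of them in any library was 491, for LCAT. The 8 markers of hepatocyte-derived cells (ALB, AFP, TTR, SERPINA1, FGB, TF, HNF4A and KRT18) were all tested, and their summed level ran from 19774 to 22052 CPM at 0 µM and from 16763 to 19241 CPM at 1000 µM. Of 8 markers of stellate cells, fibroblasts, endothelium and blood cells, 7 were in the table, 4 passed the filter, none was at 0 in all libraries, and their summed level ran from 1276 to 1496 CPM at 0 µM and from 968 to 1314 CPM at 1000 µM. Most of that sum was LYZ, at 1248 CPM ± 106 (SD, n = 3) at 0 µM. In bulk RNA of this kind, fewer cells making a transcript and less of it per cell cannot be told apart.

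In the relation of level to transcript length, the group mean of the control libraries differed from that of every dose. The median log2 level of the longest quartile of tested genes minus that of the shortest quartile, each gene centred on its mean over the 21 libraries, averaged -0.40 over the 3 libraries at 0 µM, between -0.04 and 0.12 at the 5 doses from 0.01 to 100 µM, and 0.29 at 1000 µM. Single libraries ran from -0.49 (0 µM replicate 1) to 0.45 (1000 µM replicate 3). The controls overlapped the doses in 1 library, 0.1 µM replicate 3, at -0.31, which lay below 0 µM replicate 3 at -0.28. The top dose overlapped the lower ones too, as 0.1 µM replicate 2 at 0.165 lay above 1000 µM replicate 2 at 0.163. This touches the 10 genes unequally, since 8 of them have a principal transcript in the shortest quartile (at most 1739 bases), from 474 bases for APOA2 to 1507 for LCAT, whereas MTTP has 4092 bases and APOB 14121. Counts of the 10 genes called are therefore also given after a correction for transcript length and GC content that was added after the data had been seen, with values for the main genes. The part of length in any one result was not tested beyond those values.

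Per kilobase of the principal transcript, the 10 genes covered a wide span of levels. APOA2 stood highest at a mean of 4872 CPM per kilobase over the 21 libraries, which placed it at rank 8 of 15685 tested genes with a transcript length. APOE followed at 1306 CPM per kilobase (rank 31), APOA1 at 924 (rank 53), APOH, the phospholipid-binding beta-2-glycoprotein I, at 708 (rank 79) and APOB at 541 (rank 103). APOC1 and APOC3 had nearly the same level per kilobase, 143 and 137 (ranks 434 and 449). APOM, a lipocalin of high density lipoproteins that carries sphingosine 1-phosphate, had 56.2 CPM per kilobase (rank 1245), MTTP 18.3 (rank 3895) and LCAT 15.7 (rank 4393). Neighbours in this order overlapped between libraries at 0 µM for APOE and APOA1 (1562 ± 164 and 1418 ± 265 CPM per kilobase, SD, n = 3) and for APOC1 and APOC3 (177 ± 31.2 and 167 ± 21.5). At 1000 µM the libraries of APOA1 (690 ± 154) overlapped those of both APOH (698 ± 116) and APOB (542 ± 58.0), and APOC1 again overlapped APOC3. LCAT lay above MTTP in all 3 libraries at 0 µM, at 17.7 ± 0.47 against 16.4 ± 0.18 CPM per kilobase, and below it in all 3 at 1000 µM, at 10.9 ± 1.81 against 18.6 ± 2.28.

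**Figure D1:**
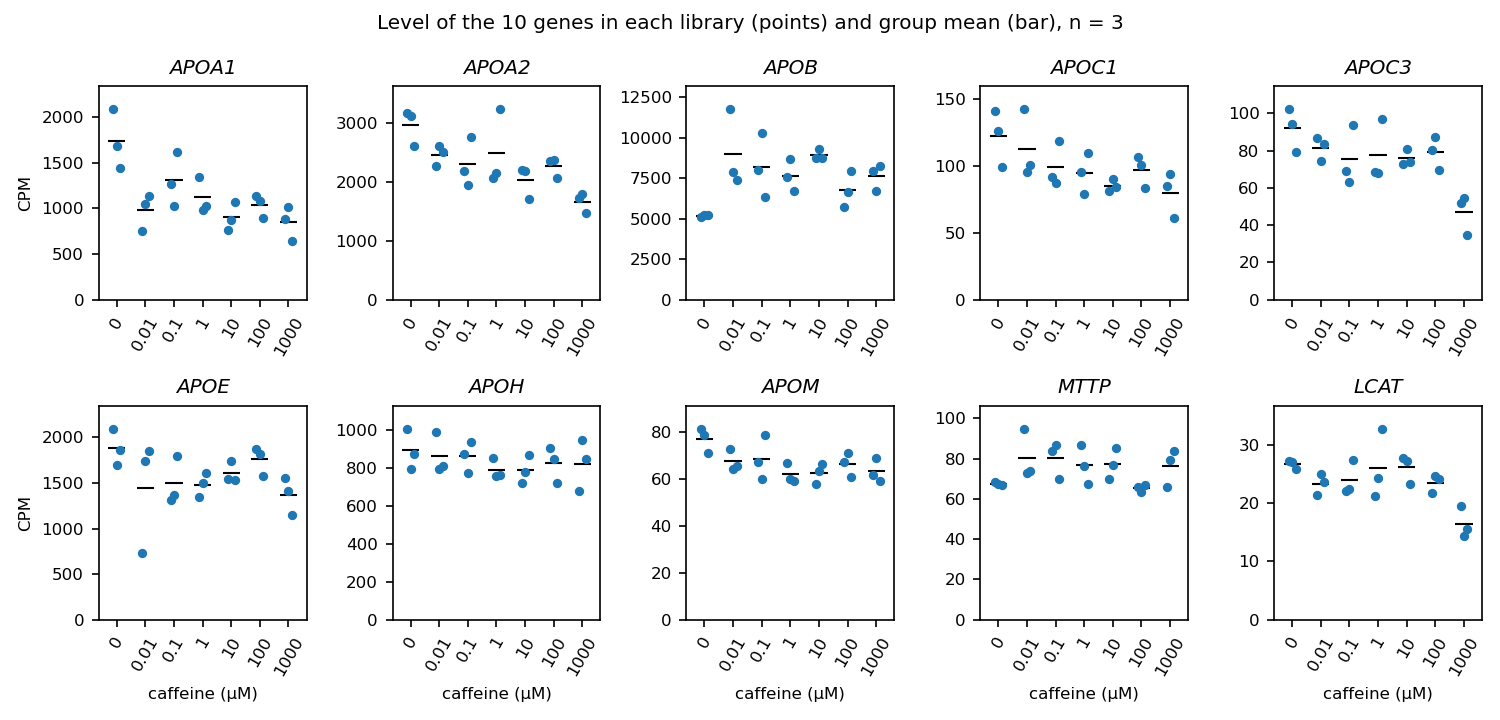
Level of each gene in CPM (linear axes starting at 0) in the 3 libraries of each caffeine dose; points are libraries and bars are group means. APOC3 and LCAT sit lowest in the 3 libraries at 1000 µM, and APOB sits lowest in the 3 libraries at 0 µM.

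At 1000 µM against untreated cells, 6 of the 10 genes fell and 1 rose. Every adjusted p below comes from the quasi-likelihood test of edgeR, with adjustment by Benjamini and Hochberg over all tested genes. In the same comparison 41.2% of all tested genes passed, 20.6% lower and 20.6% higher, so the count of 7 is to be read against a large background. The genes that fell were the high density lipoprotein proteins APOA1, APOA2 and APOM, the enzyme LCAT, and the exchangeable apolipoproteins APOC1 and APOC3, and the gene that rose was APOB. APOE, APOH and MTTP did not pass. The median log2 fold change of the 10 genes was -0.53, against -0.03 over all tested genes and -0.42 over the tested genes of the shortest quartile by transcript length. With the length and GC correction 4 genes passed, all lower (APOA1, APOA2, APOC3 and LCAT), where 37.3% of all tested genes did.

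**Figure D2:**
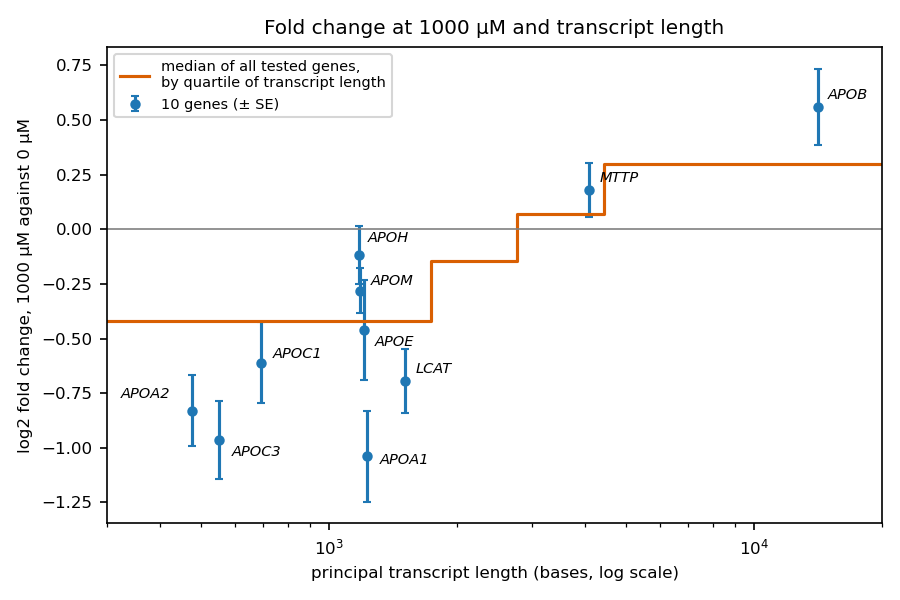
Log2 fold change at 1000 µM against 0 µM (y axis, ± SE) of the 10 genes by length of their principal transcript in bases (x axis, log scale); the stepped line is the median fold change of all tested genes in each quartile of transcript length. The line runs from -0.42 in the shortest quartile to 0.30 in the longest; APOB, MTTP, APOH and APOM lie above it, and APOA1, APOA2, APOC1, APOC3, APOE and LCAT lie below it.

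Among the proteins of high density lipoproteins, APOA1 had the largest fall, though whether it fell more than APOA2 was not tested. The level of APOA1 was 2090.5, 1680.4 and 1448 CPM in the 3 untreated libraries and 882, 1016 and 643 CPM at 1000 µM. All 3 libraries at 1000 µM lay below all controls, as did those of 27.3% of all tested genes. The log2 fold change was -1.04 ± 0.21 (SE, edgeR adjusted p = 0.000767). At the doses between, the 3 libraries had 752, 1051 and 1133 CPM at 0.01 µM, 1273, 1026 and 1624 at 0.1 µM, and 1347, 986 and 1027 at 1 µM. They had 765, 874 and 1071 CPM at 10 µM and 1136, 1083 and 899 at 100 µM. APOA1 was already low at the smallest dose, and of the 18 treated libraries only 1, replicate 3 at 0.1 µM, reached into the range of the controls. Corrected for length and GC, the change at 1000 µM was -0.54 ± 0.18 (edgeR adjusted p = 0.0267).

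APOA2, the second structural protein of high density lipoproteins, had 3165, 3113 and 2607 CPM in the untreated libraries and 1731, 1794 and 1473 CPM at 1000 µM. All 3 libraries at 1000 µM lay below all controls, as in 27.3% of all tested genes, with a log2 fold change of -0.83 ± 0.16 (edgeR adjusted p = 0.000583). The libraries at 0.01 µM had 2262, 2608 and 2501 CPM, those at 0.1 µM 2187, 1952 and 2759, and those at 1 µM 2057, 2156 and 3237. At 10 µM they had 2203, 2185 and 1708 CPM and at 100 µM 2359.9, 2375 and 2062. The values at 0.01, 0.1 and 1 µM overlapped the controls, and replicate 3 at 1 µM was the highest of all 21 libraries. The corrected change at 1000 µM was -0.37 ± 0.11 (edgeR adjusted p = 0.0138).

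LCAT lay between 21.2 and 32.8 CPM in the 18 libraries from 0 to 100 µM. It had 27.2, 27.0 and 25.8 CPM in the untreated libraries and 19.5, 14.3 and 15.6 CPM at 1000 µM, which gave a log2 fold change of -0.69 ± 0.14 (edgeR adjusted p = 0.00102). The libraries between had 21.3, 24.97 and 23.6 CPM at 0.01 µM, 22.1, 22.4 and 27.4 at 0.1 µM, 21.2, 24.3 and 32.8 at 1 µM, 27.8, 27.2 and 23.3 at 10 µM, and 21.6, 24.7 and 24.1 at 100 µM. No library at any other dose was as low as the highest of the 3 at 1000 µM. The share of all tested genes for which this holds was not counted. After the correction the change was -0.32 ± 0.10 (edgeR adjusted p = 0.0177). APOM had 81.2, 78.5 and 70.8 CPM untreated and 61.5, 68.9 and 59.2 CPM at 1000 µM, and its log2 fold change was -0.28 ± 0.10 (edgeR adjusted p = 0.0357). The 3 treated libraries of APOM were below all controls, as in 27.3% of all tested genes. The call was lost without any one of 4 of the 6 libraries compared (highest edgeR adjusted p 0.14). These were 0 µM replicates 1 and 2 and 1000 µM replicates 1 and 3. With the correction the change of APOM was -0.03 (edgeR adjusted p = 0.781).

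Among the exchangeable apolipoproteins, APOC3, an inhibitor of the clearance of triglyceride-rich particles, passed at 1000 µM and at no other single dose. It had 102, 94.2 and 79.1 CPM in the untreated libraries and 52.1, 54.6 and 34.7 CPM at 1000 µM, which gave a log2 fold change of -0.96 ± 0.18 (edgeR adjusted p = 0.000387). The libraries between had 86.6, 74.6 and 83.8 CPM at 0.01 µM, 69.2, 63.1 and 93.7 at 0.1 µM, 68.5, 68.1 and 96.7 at 1 µM, 73.0, 80.7 and 73.9 at 10 µM, and 80.2, 87.5 and 69.7 at 100 µM. Each of these 5 groups overlapped the controls, and none overlapped the 1000 µM libraries. Length and GC correction brought the change at 1000 µM to -0.41 ± 0.14 (edgeR adjusted p = 0.0248).

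APOC1, which inhibits the cholesteryl ester transfer protein, had 141, 126 and 98.9 CPM untreated and 85.0, 93.7 and 61.2 CPM at 1000 µM. The groups did not overlap, with all 3 libraries at 1000 µM below all controls, as in 27.3% of all tested genes. The log2 fold change was -0.61 ± 0.19 (edgeR adjusted p = 0.0139). The call was lost without 0 µM replicate 1 (-0.49, edgeR adjusted p = 0.0742) or 1000 µM replicate 3 (-0.45, edgeR adjusted p = 0.0893), and with the length and GC correction the change was -0.16 (edgeR adjusted p = 0.435). APOE, the ligand by which remnant particles bind their receptors, had 2096, 1700.2 and 1864 CPM untreated and 1551, 1415 and 1149 CPM at 1000 µM. Its 3 libraries at 1000 µM also lay below all controls, as did those of 27.3% of all tested genes, but its log2 fold change of -0.46 ± 0.23 did not pass (edgeR adjusted p = 0.118) and was 0.20 with the correction (edgeR adjusted p = 0.251). In a fit of the 6 libraries of those 2 doses alone APOE did pass (-0.44 ± 0.13, edgeR adjusted p = 0.0227). APOH had 1004, 795 and 871 CPM untreated and 675, 945 and 843 CPM at 1000 µM. These overlapped, and the log2 fold change was -0.12 ± 0.13 (edgeR adjusted p = 0.501).

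Of the genes of particle assembly, APOB rose and MTTP did not pass. APOB had 5089, 5222 and 5258 CPM in the untreated libraries and 7956, 6721 and 8269 CPM at 1000 µM, which gave a log2 fold change of 0.56 ± 0.18 (edgeR adjusted p = 0.0163). The libraries between had 11772, 7894 and 7364 CPM at 0.01 µM, 8028, 10314 and 6309 at 0.1 µM, and 7576, 8668 and 6728 at 1 µM. They had 8758, 9274 and 8751 CPM at 10 µM and 5718, 6671 and 7966 at 100 µM. All 3 libraries at 1000 µM lay above all 3 controls, as did those of 25.9% of all tested genes. The libraries at each other dose did so too, and the share of genes with all 18 treated libraries above the controls was not counted. The controls differed little among themselves (5189.7 ± 88.8 CPM, SD, n = 3). Corrected for length and GC, the change at 1000 µM was 0.08 ± 0.11 (edgeR adjusted p = 0.605), and without it the call was lost when either 0 µM replicate 1 (0.55, edgeR adjusted p = 0.0502) or 1000 µM replicate 3 (0.50, edgeR adjusted p = 0.0655) was left out. MTTP had 68.1, 67.2 and 66.6 CPM untreated and 65.8, 79.0 and 83.9 CPM at 1000 µM, and its log2 fold change of 0.18 ± 0.12 did not pass (edgeR adjusted p = 0.248).

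**Figure D3:**
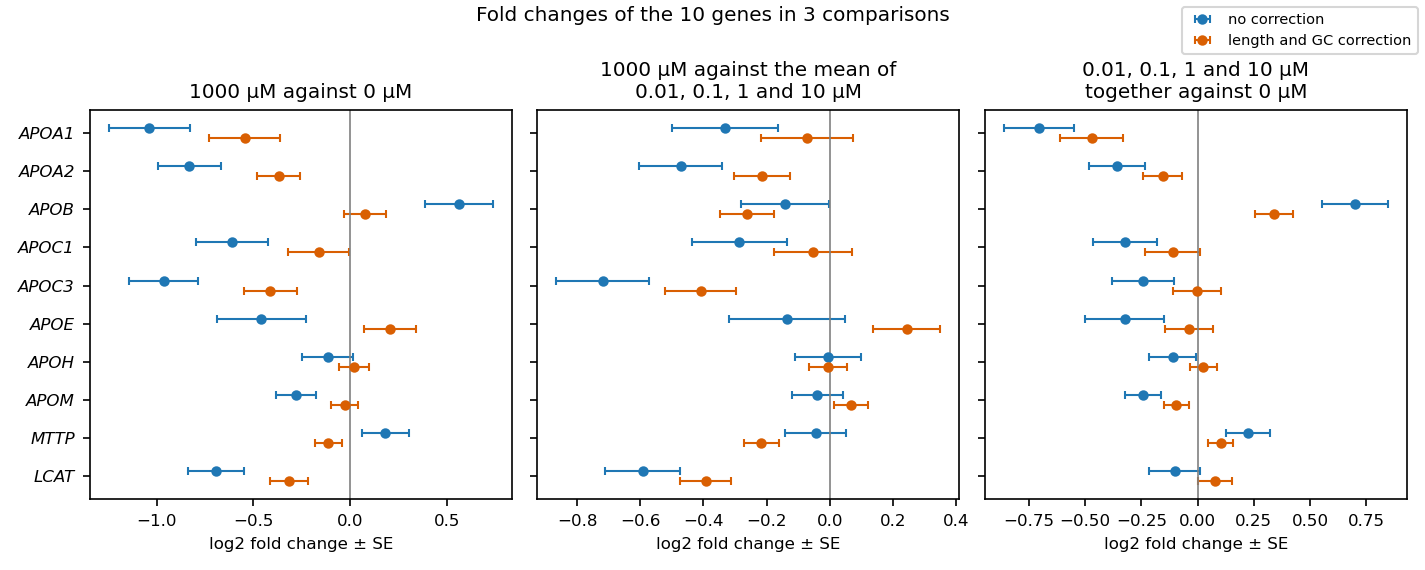
Log2 fold change (x axis, ± SE) of the 10 genes (y axis) in 3 comparisons, without and with the length and GC correction. At 1000 µM against 0 µM the corrected values lie nearer to 0 for APOA1, APOA2, APOC3 and LCAT but stay below it, and that of APOB is 0.08. Against the mean of the 4 low doses all 10 uncorrected values lie below 0. With the correction only APOE and APOM lie above it there.

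The smaller doses were compared with the same 3 untreated libraries, so the values that follow are not independent of each other. At 0.01 µM 2 of the 10 genes passed, where 4.95% of all tested genes did: APOA1 was lower, with a log2 fold change of -0.83 ± 0.21, and APOB higher, at 0.80 ± 0.18, each with an edgeR adjusted p of 0.0392. Both calls were lost without either of 0 µM replicates 1 and 2 or 0.01 µM replicates 1 and 2, and none of the 10 passed with the length and GC correction (1.84% of all tested genes). At 0.1 and 1 µM edgeR called none of the 10 genes and 0% of all tested genes. At an unadjusted p under 0.05 there were 2 of the 10 at 0.1 µM and 3 at 1 µM. The share of all tested genes at that limit was not counted. DESeq2 called 1 of the 10 at 0.1 µM (APOB), where it called 2.93% of all tested genes. At 1 µM it called 2 (APOA1 and APOB), where it called 8.08%. The corrected fit called none of the 10 at either dose, and 0.0114% and 0.0744% of all tested genes. At 10 µM 4 of the 10 passed, where 22% of all tested genes did: APOB at 0.78 ± 0.18 (edgeR adjusted p = 0.00679), APOA1 at -0.95 ± 0.21 (0.00612), APOA2 at -0.54 ± 0.16 (0.0236) and APOM at -0.30 ± 0.10 (0.0463). Of these, APOA1 and APOB kept their calls in all 6 fits that left out 1 library, and also with the length and GC correction, at -0.69 and 0.38 (edgeR adjusted p = 0.0156 and 0.0188, 20.8% of all tested genes called). APOA2 was called in 2 of those 6 fits and APOM in 1. At 100 µM only APOA1 passed, at -0.74 ± 0.21 (edgeR adjusted p = 0.0439), where 6.02% of all tested genes did. That call was kept in only 1 of 6 fits with a library left out, the one without 0 µM replicate 3, and was lost with the correction, when none of the 10 passed (6.39% of all tested genes).

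Taken as 1 comparison, the 12 libraries from 0.01 to 10 µM differed from the controls in 3 of the 10 genes, where 18.2% of all tested genes passed. APOB was higher by 0.70 ± 0.15 on the log2 scale, with all 12 libraries above all controls, as in 3.44% of all tested genes (edgeR adjusted p = 0.00686), and APOA1 was lower, with a log2 difference of -0.71 ± 0.16 (edgeR adjusted p = 0.00823). APOM was lower at -0.24 ± 0.08 (edgeR adjusted p = 0.0437), with overlap between the groups, was called in 3 of 15 fits with a library left out, and lost its call with the correction (-0.09, edgeR adjusted p = 0.256). The calls of APOA1 and APOB were lost in 1 of those 15 fits, the one without 0 µM replicate 1 (edgeR adjusted p = 0.104 and 0.0693). After length and GC correction APOB stood at 0.34 ± 0.09 (edgeR adjusted p = 0.0176) and APOA1 at -0.47 ± 0.14 (edgeR adjusted p = 0.0345), where 13.4% of all tested genes passed. APOC3 and LCAT, by contrast, had log2 differences of -0.24 ± 0.14 and -0.10 ± 0.11 and did not pass (edgeR adjusted p = 0.222 and 0.567).

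A comparison of the top dose that leaves out the untreated libraries set 1000 µM against the mean of the 4 doses from 0.01 to 10 µM. In it 3 of the 10 genes passed, all lower, where 30.7% of all tested genes passed and 14.4% were lower. APOC3 fell by 0.72 ± 0.15 on the log2 scale (edgeR adjusted p = 0.00114) and LCAT by 0.59 ± 0.12 (edgeR adjusted p = 0.000963), each with its 3 libraries at 1000 µM below all 12 others, as in 6.42% of all tested genes. APOA2 fell by 0.47 ± 0.13 (edgeR adjusted p = 0.0108), with overlap. APOC3 and LCAT were called in all 15 fits with a library left out, and APOA2 in 14, its call being lost without 1000 µM replicate 3 (edgeR adjusted p = 0.0948). With the length and GC correction APOC3 stood at -0.41 ± 0.11 (edgeR adjusted p = 0.00855) and LCAT at -0.39 ± 0.08 (edgeR adjusted p = 0.000917), APOA2 was not called (edgeR adjusted p = 0.0736), and MTTP at -0.22 ± 0.06 and APOB at -0.26 ± 0.09 were called (edgeR adjusted p = 0.00561 and 0.0245), with 32.3% of all tested genes passing. APOA1 had a log2 difference of -0.33 ± 0.17 in this comparison and did not pass (edgeR adjusted p = 0.143), and APOB without the correction had -0.14 ± 0.14 (edgeR adjusted p = 0.477).

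Over all doses, 5 of the 10 genes differed among the 7 groups, where 28.1% of all tested genes did: APOA1 (edgeR adjusted p = 0.00828), APOC3 (0.0146), APOA2 (0.0177), LCAT (0.0178) and APOB (0.0241). With the length and GC correction 3 did, APOB, MTTP and LCAT (edgeR adjusted p = 0.031, 0.0113 and 0.0249, 30.3% of all tested genes), and among the 18 treated libraries alone 1 did, APOC3 (edgeR adjusted p = 0.0495). A slope on the rank of the dose, counted from 0 to 6, was negative and passed in 4 of the 10, where 29% of all tested genes passed and 14.5% were lower. The log2 level changed per step by -0.13 in APOA1 (edgeR adjusted p = 0.00494), -0.10 in APOA2 (0.00252), -0.099 in APOC3 (0.0137) and -0.088 in APOC1 (0.00779). All 4 calls were kept in each of 21 fits that left out 1 library, but none of the 10 genes had a called slope in the smaller fits without the 3 libraries at 1000 µM or without the 3 at 0 µM. Without 1000 µM the slopes of APOA1 (-0.13, edgeR adjusted p = 0.0606) and APOC1 (-0.083, 0.0759) were nearly as steep as before, that of APOA2 was -0.075 (0.0959), and that of APOC3 was -0.039 (0.331). Without 0 µM those of APOC3 (-0.0998, 0.102), APOA2 (-0.088, 0.0647) and APOC1 (-0.078, 0.094) were nearly as steep, and that of APOA1 was -0.071 (0.253). After the length and GC correction the slopes of APOA1 (-0.08, edgeR adjusted p = 0.0324) and APOA2 (-0.04, edgeR adjusted p = 0.0426) passed, with 29.6% of all tested genes called. APOB had a slope of 0.027 (edgeR adjusted p = 0.58), its highest group mean being that at 0.01 µM.

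Ratios within a library compare pairs of the genes directly. The log2 ratio of APOB to APOA1 counts, which is not a ratio per length, was 1.28, 1.64 and 1.86 in the untreated libraries and 3.17, 2.72 and 3.69 at 1000 µM. Group means at the 5 doses between ran from 2.65 at 0.1 µM to 3.32 at 10 µM, and replicate 3 at 0.1 µM, at 1.96, was the treated library nearest to the controls. The chromosome 11 neighbours APOA1 and APOC3 had a log2 ratio of 4.23 ± 0.10 (SD, n = 3) untreated, 4.17 ± 0.08 at 1000 µM, and 3.56 ± 0.26 at 10 µM. The chromosome 19 neighbours APOE and APOC1 had a log2 ratio of 3.96 ± 0.25 untreated and 4.11 ± 0.17 at 1000 µM. APOB against MTTP, the scaffold and its lipid loader, had 6.27 ± 0.04 untreated and 6.65 ± 0.25 at 1000 µM. The log2 ratio of APOA1 to APOA2 ran from -0.89 to -0.60 untreated and from -1.20 to -0.82 at 1000 µM, which overlapped. These ratios are descriptions and were not tested.

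For the 5 genes that differed among the groups, the most similar profiles were sought among 12436 genes with a symbol and at least 1 CPM on average, by the root mean square difference of centred log2 level over the 21 libraries. For APOA2 the nearest was APOC2, the activating cofactor of lipoprotein lipase (difference 0.066), then TMSB10 (0.077) and NDUFS8 (0.087), where the median gene differed by 0.36. For APOB the nearest were SYNE2 (0.087), ALMS1 (0.094) and PRTG (0.096), whose principal transcripts of 21842, 12925 and 11967 bases are long like its own. For APOA1 they were RPS9 (0.10), NUDT16L1 (0.12) and PSMB6 (0.13). For APOC3 they were MEA1, VAMP5 and RPL36AL, each at 0.13, and for LCAT MASP2, SLC25A22 and ATP6V0E2, each between 0.089 and 0.091. The transcripts nearest to APOA2 have 744, 496 and 791 bases against its own 474, and those nearest to APOA1 have 829, 1349 and 852 against 1227. For APOC3 the nearest transcripts have 2152 (MEA1), 689 (VAMP5) and 746 (RPL36AL) bases against 550. For LCAT the nearest have 2439, 2796 and 1649 bases against 1507. Among the transcripts nearest to APOC3 and LCAT, that of MEA1 was the least alike in length.

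The rest of the pathway was read from 5 lists of genes at 1000 µM against 0 µM, with the same background of 20.6% higher and 20.6% lower. Of 12 other apolipoproteins 8 were tested, and 6 were lower and none higher, with a median log2 fold change of -0.60. APOA4, made for triglyceride-rich particles, fell from 23.0 ± 2.08 to 12.1 ± 1.30 CPM (SD, n = 3), a log2 fold change of -0.92 ± 0.14 (edgeR adjusted p = 7.33e-05). APOA5, an activator of triglyceride clearance, fell from 45.1 ± 3.14 to 27.0 ± 3.25 CPM (-0.74 ± 0.17, edgeR adjusted p = 0.00229), and APOC2 fell from 276 ± 22.6 to 173 ± 23.2 CPM (-0.67 ± 0.16, edgeR adjusted p = 0.00233). These 3 stayed below the threshold with the length and GC correction, at -0.52, -0.45 and -0.33 (edgeR adjusted p = 0.000343, 0.00733 and 0.0431). APOF, APOL1 and APOL3 were the other 3 that fell, and the corrected fit called 7 of the 8 lower and none higher, with 37.3% of all tested genes called in it.

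Genes of particle assembly and secretion moved both ways, 5 higher and 5 lower of 18 tested, with a median log2 fold change of 0.05. MIA2, a cargo receptor at endoplasmic reticulum exit sites, rose from 57.9 ± 2.28 to 92.3 ± 8.20 CPM (0.67 ± 0.09, edgeR adjusted p = 1.69e-05). DGAT1 and SOAT2, which make the triglyceride and the cholesteryl ester of the particle core, both fell. DGAT1 went from 109 ± 1.68 to 59.3 ± 5.91 CPM (-0.88 ± 0.13, edgeR adjusted p = 6.69e-05). SOAT2 went from 23.6 ± 3.32 to 15.0 ± 1.04 CPM (-0.66 ± 0.11, edgeR adjusted p = 0.000188). The corrected changes were 0.33 for MIA2, -0.74 for DGAT1 and -0.44 for SOAT2 (edgeR adjusted p = 0.00372, 3.08e-07 and 0.000671), and 2 of the 18 were then higher and 7 lower, with a median of -0.15. MIA3, SORT1, LMAN1 and A1CF were also higher, and P4HB, the disulfide isomerase that forms the second subunit of the MTTP complex, was among those lower, with CIDEB and PLA2G12B. DGAT1, SOAT2 and MIA2 also passed between 1000 µM and the mean of the 4 low doses, where 30.7% of all tested genes did (log2 differences of -0.69, -0.46 and 0.57). That comparison shares its 3 libraries at 1000 µM with the one by which these genes were picked.

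Of 13 tested genes that remodel particles in plasma, 5 fell and 3 rose. FURIN, a protease whose substrates include lipases, rose from 111 ± 10.4 to 265 ± 17.2 CPM (1.25 ± 0.11, edgeR adjusted p = 3.48e-07), and ABCA1 and PCSK6 were the other 2. LIPC, the hepatic lipase, fell from 14.2 ± 0.22 to 9.11 ± 0.49 CPM (-0.64 ± 0.09, edgeR adjusted p = 2.89e-05). ABCG5, one subunit of the sterol exporter, fell from 15.6 ± 1.07 to 10.4 ± 1.02 CPM (-0.58 ± 0.12, edgeR adjusted p = 0.000808), as did its partner ABCG8 and PLTP. The corrected changes were 1.30 for FURIN, -0.76 for LIPC and -0.61 for ABCG5 (edgeR adjusted p = 1.51e-10, 4.42e-05 and 0.000208), with 4 of the 13 higher and 5 lower. Among 13 receptors and uptake genes 3 rose and 3 fell. SDC1, a proteoglycan that binds remnants, fell from 266 ± 20.6 to 153 ± 15.8 CPM (-0.80 ± 0.11, edgeR adjusted p = 2.89e-05; corrected -0.70, edgeR adjusted p = 9.81e-06). VLDLR rose from 9.67 ± 0.74 to 14.9 ± 0.39 CPM (0.63 ± 0.10, edgeR adjusted p = 0.000152), a call that was lost with the length and GC correction (0.18, edgeR adjusted p = 0.109). LRP1 and LRP8 were the other genes that rose, and LRPAP1 was another that fell; the corrected fit called 4 of the 13 higher and 3 lower.

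Of 25 transcription factors and cofactors known to act on apolipoprotein genes, all tested, 4 rose, 3 fell and 18 did not pass. HNF4G, a nuclear receptor related to HNF4A, rose from 10.1 ± 0.76 to 24.2 ± 3.09 CPM (1.27 ± 0.15, edgeR adjusted p = 7.46e-06). The coactivator PPARGC1A rose from 7.36 ± 0.58 to 15.7 ± 2.82 CPM (1.09 ± 0.17, edgeR adjusted p = 9.83e-05). NR1H4, the bile acid receptor FXR, fell from 14.0 ± 0.98 to 7.38 ± 0.97 CPM (-0.92 ± 0.12, edgeR adjusted p = 1.46e-05). FOXO1 and RORA were also higher, and CEBPA and SREBF1 also lower, while HNF4A had 0.18 ± 0.07 and did not pass (edgeR adjusted p = 0.057). HNF4G, PPARGC1A and NR1H4 kept their calls with the length and GC correction (1.31, 0.66 and -1.12, edgeR adjusted p at most 0.0109), and 7 of the 25 were then higher and 4 lower. Against the mean of the 4 low doses they had log2 differences of 0.86 ± 0.11, 0.67 ± 0.13 and -0.83 ± 0.10, with no overlap between groups. The libraries at 1000 µM lay below all those of the 4 low doses in 6.42% of all tested genes, as for NR1H4. The share lying above is not given here. This comparison shares its 3 libraries at 1000 µM with the one by which these genes were picked.

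**Figure D4:**
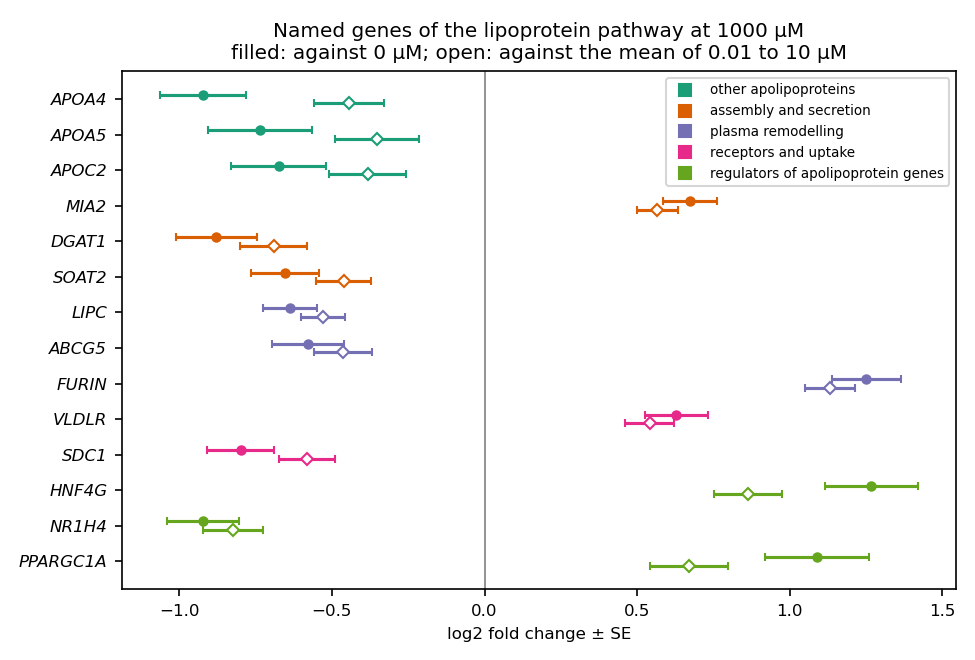
Log2 fold change at 1000 µM (x axis, ± SE) of the 14 named genes from the 5 lists (y axis, coloured by list), filled against 0 µM and open against the mean of 0.01, 0.1, 1 and 10 µM. The apolipoproteins APOA4, APOA5 and APOC2 lie below 0 in both, FURIN and HNF4G lie furthest above it, and every gene has the same sign in both comparisons.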

How the data were processed

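RNA was measured by poly(A)-selected RNA sequencing in 21 samples of HepG2 cells. The authors deposited raw read counts, whole numbers for each gene in 1 table, not normalized as far as the values show. HISAT2, DESeq2 and the build GRCh38 are named in the submitters' processing notes. The counting program, the annotation, the versions and the use of strand are not given in the sources used here. The table has 42 per-sample columns: 21 matched the samples, and 21 were not used. Of 37637 features, 32937 had Ensembl identifiers, 24843 of them with a symbol, and 4700 were unannotated.

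Counts were analysed in R 4.3.3 with edgeR 4.0.16, with TMM scaling and filterByExpr (minimum count 10). One quasi-likelihood fit of 21 samples in 7 groups left 14 residual degrees of freedom, with a common biological coefficient of variation of 0.162. Benjamini-Hochberg adjustment ran over 17468 genes, with a threshold of 0.05, and "called" or "passed" means below it. An SE is the size of a log2 fold change over the root of its F statistic. CPM are TMM-scaled, and log2 CPM for profiles used a prior count of 2. The comparisons were each dose with 0 µM, 1000 µM with the mean of 0.01 to 10 µM, those 4 doses together with 0 µM, the 7 groups together, and a slope on the dose step. Transcript lengths are of the principal transcript in GENCODE v29, known for 89.8% of tested genes and all 10 members. The length and GC correction subtracted a smooth curve per library (mgcv 1.9.3) as an offset, and was added after the data had been seen.

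The 10 genes, the lists and the comparisons were chosen with earlier results of these data known. Up to 3 genes per list are named, those with the smallest p at 1000 µM among called genes whose groups did not overlap. HNF4A, and called list members given by name alone, were added after their values were seen. Some listed genes are counted but not reported by name here. APOC4, APON, LPL and PECAM1 from the lists were not analysed here. The fits were tested on simulated data. Alternatives were DESeq2 1.42.0, other scaling and filters, a replicate block, fewer groups, and each library left out. The 21 replicate pairs differed by a mean chi-square per gene of 5.18 to 195, so none was close to 1 library deposited again.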

Additional observations from a re-analysis of the deposited data

How the results depend on the processing

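Counts of the 10 genes called were compared with the main fit over the other settings tried, the added correction included. Each count is for 1 comparison in 1 setting, so most fits gave several. Of these counts 74 stayed within 1.5 times and 16 moved further. A count of 0 in both was taken as unchanged. DESeq2 called 1 gene at 0.1 µM and 2 at 1 µM, where it called 2.93% and 8.08% of all tested genes. With a replicate block the count was 0 at 0.01 µM and 0 at 100 µM, where 0% and 2.55% of all tested genes passed. At 1000 µM it was 6, where 39.3% of all tested genes passed. APOM was lost there (-0.28), with no other change at that dose. The median correlation of deviations was 0.0199 over 63 same-numbered pairs of libraries and -0.00497 over 126 other pairs. Whether the replicate numbers pair the samples cannot be told from these values. Fitting only the 6 samples of the groups compared gave 0 at 0.01 µM, where 0.0124% of all tested genes passed. At 100 µM it gave 3 (APOA1, APOA2 and APOB), where 24.7% of all tested genes passed. At 1000 µM it called APOE (-0.44) and not APOM (-0.26), with 43.7% of all tested genes called. Without the 3 libraries at 1000 µM, 0 genes differed among groups and 0 had a called slope, though that of APOA1 was -0.129 against -0.130 with all 21. With the 18 treated libraries alone the values were 1 and 0, and the slopes of APOB and APOE turned to -0.0502 and 0.0151. With the length and GC correction the count at 1000 µM was 4, that at 10 µM was 2, and those at 0.01 and 100 µM were 0; the test among the groups called 3 and the slope 2. Under it APOE, APOH and MTTP changed sign at 1000 µM (0.20, 0.019 and -0.11), as did the slopes of APOB (-0.00897), APOE (0.0434) and APOH (0.000688); without an expression filter the slope of MTTP was 0.00157. None of the values that changed sign was called. The cause was not tested.

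Leaving out 1 library at a time gave 4 to 7 called genes at 1000 µM. At 10 µM the range was 2 to 5, and at 0.01 µM 0 to 2. For each of 0.1, 1 and 100 µM it gave 0 to 1. It gave 0 to 4 for the 4 low doses together against 0 µM, 2 to 3 for 1000 µM against their mean, 2 to 5 among the groups and 4 to 6 for the slope. Without 0 µM replicate 1 the counts were 4 at 1000 µM and 0 for the 4 low doses together. The log2 fold change of APOH at 1000 µM then ran from -0.21 to 0.034 and the slope of MTTP from -0.0123 to 0.00621, and neither was called. APOA1, APOA2, APOC3 and LCAT kept their calls at 1000 µM in 6 of 6 such fits. Each of the 10 genes had at least 491 counts in every library.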

Other observations

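Of the 8 hepatocyte-derived markers, 3 were lower at 1000 µM than untreated and none was higher, where 20.6% of all tested genes were lower; the median log2 fold change of the 8 was -0.18. Their summed level in each of the 3 libraries at 1000 µM lay below that in each control. The same held at 0.01, 1, 10 and 100 µM, so it was not particular to the top dose. At 0.1 µM the sum ran from 17740 to 21269 CPM and overlapped the controls. ALB, which encodes albumin, had 6651, 5401 and 5569 CPM untreated and 4808, 6069 and 5936 CPM at 1000 µM, and its log2 fold change was -0.07 ± 0.15 (edgeR adjusted p = 0.739). TTR and SERPINA1, the genes of transthyretin and alpha-1-antitrypsin, had -0.19 ± 0.19 and -0.18 ± 0.12 and did not pass (edgeR adjusted p = 0.444 and 0.246). The 3 that fell were AFP, the fetal counterpart of albumin, from 3497 ± 248 to 2163 ± 184 CPM (SD, n = 3; log2 fold change -0.69 ± 0.10, edgeR adjusted p = 4.48e-05), the keratin KRT18 (-0.62 ± 0.12, edgeR adjusted p = 0.000671) and the fibrinogen gene FGB (-0.33 ± 0.08, edgeR adjusted p = 0.00362).

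One library held an APOE level apart from the rest. Replicate 1 at 0.01 µM had 734 CPM of APOE, where the other 2 libraries of that dose had 1747 and 1856 and the remaining 18 libraries had at least 1149. APOC1, which lies beside APOE, had 143 CPM in that library, the highest of all 21, so that the log2 ratio of APOE to APOC1 was 2.36 against 4.19 and 4.21. The same library had the highest APOB (11772 CPM) and MTTP (94.8 CPM) levels and the lowest APOA1 level of its dose (752 CPM). Of its counts 11.7% came from mitochondrial genes, against 8.45% and 7.64% in the others of its dose. Among all libraries that share was not the highest, as 1 µM replicate 3 had 14.2%. Without replicate 1 at 0.01 µM the log2 fold change of APOE at that dose was -0.07 ± 0.14 (edgeR adjusted p = 0.83). With that library it was -0.38 ± 0.23 (edgeR adjusted p = 0.301). What sets that library apart was not tested.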
